A study of Homo sapiens with 18 samples.

Results

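The caveola genes described here were the caveolins *CAV1* and *CAV2*, the cavins *CAVIN1*, *CAVIN2* and *CAVIN3*, and the membrane-bending genes *EHD2* and *PACSIN2*, chosen as the 7 rows of the expression table with these symbols, out of 40266 gene symbols. RNA-seq was performed on the pancreatic ductal adenocarcinoma (PDAC) lines Panc1 (PANC-1 in the labels), which came from a primary tumor and served as a mesenchymal-like model, and Panc89, which came from a lymph node metastasis and served as an epithelial model. Each line was measured as parental cells, as Holoclone cells (the cancer stem cell, CSC, population) and as Paraclone cells (the non-CSC population), giving 6 groups of 3 replicates and 18 libraries, all from cells kept in the same medium without treatment. The Holoclone and the Paraclone cells of a line were each 1 expanded single-cell clone, so that a difference between them cannot be told apart from a difference between any 2 clones of that line. The replicates were RNA from 3 passages of the same cells, and the p-values therefore measure the spread between passages only.

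Caveolae are small flask-shaped pits of the plasma membrane. Caveolins are inserted into the inner leaflet and form the coat, cavins join it from the cytosol, and CAVIN1 is required for the pit to form, while EHD2 sits at the neck and holds the caveola at the surface and PACSIN2 is an F-BAR protein that bends the membrane. Caveolae buffer membrane tension, take part in endocytosis and concentrate signalling receptors, and they are abundant in endothelial cells, adipocytes, smooth muscle and fibroblasts. CAV1 without CAVIN1 stays at the membrane outside caveolae.

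Values are TPM (transcript abundances normalised to library size), which are scaled for transcript length, so that levels can be set side by side between genes. A log2 fold change is a difference of log2(TPM + 1), tested with limma over the 16093 genes that reached 1 TPM in 3 or more libraries, and a gene was called where the p-value adjusted by the Benjamini-Hochberg method over all those genes was under 0.05. The table gives no counts, so the depth behind each value is unknown. The share of TPM from mitochondrial genes was 5.62 to 9.44%, 12932 to 14199 genes reached 1 TPM, and each library's mean correlation with its replicates was 0.962 to 0.989, lowest in Panc89 Paraclone replicate 2. *KRT18*, a keratin of simple epithelia, was at 731 TPM or more in every group mean of both lines, whereas *VIM* was at 2021 to 5044 TPM in the Panc1 libraries and at most 0.456 TPM in the Panc89 libraries. Of 6 epithelial markers, 4 were called higher and 1 lower in parental Panc89 than in parental Panc1 cells. Among Holoclone cells 4 were higher and 2 lower, and among Paraclone cells 3 were higher. Of 3 mesenchymal markers, 2 were lower among parental and 3 among Holoclone cells. Among Paraclone cells 2 were lower and 1 was higher in Panc89 cells. Of all tested genes 66.0%, 65.8% and 60.7% were called in these 3 comparisons. Of the markers of other caveola-rich cells, the 5 endothelial genes summed to 55.3 to 69.1 TPM in parental Panc89 cells, 1.03 to 2.20 TPM in Panc89 Holoclone cells, 3.01 to 9.01 TPM in Panc89 Paraclone cells and at most 0.424 TPM in Panc1 cells, with *PECAM1* making up most of it while *VWF*, *KDR* and *TEK* stayed at or under 0.355 TPM. *PECAM1* and *CDH5* were the 2 that passed the filter, and both were called higher in parental Panc89 than in parental Panc1 cells. The 4 adipocyte genes summed to at most 0.444 TPM and the 4 muscle genes to at most 8.43 TPM, highest in Panc89 Paraclone cells. Whether these transcripts have a part in the differences below was not tested, and in bulk RNA fewer cells expressing a gene cannot be told apart from less RNA of it per cell.

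*CAV2* and *CAV1* lie next to each other in the same orientation on chromosome 7, and their upstream sequences are shown because the 2 genes moved together in these libraries. *CAVIN2*, listed near 0 in Panc1 cells, is shown for contrast. On GRCh38 (GENCODE 44) *CAV2* (ENSG00000105971.15) spans chr7:116287380-116508541 and *CAV1* (ENSG00000105974.13) spans chr7:116524994-116561179, both on the plus strand with 16452 bp between them, and *CAVIN2* (ENSG00000168497.5) spans chr2:191834310-191847088 on the minus strand. The sequences are the 250 bases before the most upstream RefSeq start on GRCh38.p14, at chr7:116524759-116525008 for *CAV1*, chr7:116499488-116499737 for *CAV2* and chr2:191847089-191847338 for *CAVIN2*, written 5′ to 3′ on the gene's strand. The end of the *CAV1* window lies inside its first exon as GENCODE draws it. The whole *CAV2* window lies inside the GENCODE span of *CAV2*, which starts farther upstream than the RefSeq start used. Capitals mark the GC box GGGCGG (bound by SP1 and SP3) on either strand, and in *CAVIN2* the TEAD site GGAATG.
CAV1: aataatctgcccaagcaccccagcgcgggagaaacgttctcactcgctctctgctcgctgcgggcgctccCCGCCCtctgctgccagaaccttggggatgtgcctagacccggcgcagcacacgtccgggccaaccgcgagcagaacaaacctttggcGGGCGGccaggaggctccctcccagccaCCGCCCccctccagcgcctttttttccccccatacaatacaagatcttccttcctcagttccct
CAV2: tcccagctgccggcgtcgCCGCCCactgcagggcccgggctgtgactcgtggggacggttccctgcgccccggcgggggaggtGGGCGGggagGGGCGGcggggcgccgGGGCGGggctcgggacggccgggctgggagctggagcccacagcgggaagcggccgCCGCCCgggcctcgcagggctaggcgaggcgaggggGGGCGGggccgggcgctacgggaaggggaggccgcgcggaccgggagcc
CAVIN2: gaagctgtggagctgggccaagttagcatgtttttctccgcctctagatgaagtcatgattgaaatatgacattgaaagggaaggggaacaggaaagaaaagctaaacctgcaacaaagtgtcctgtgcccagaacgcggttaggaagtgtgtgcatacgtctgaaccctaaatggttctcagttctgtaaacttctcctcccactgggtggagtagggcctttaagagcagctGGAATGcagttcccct
RefSeq starts were given for 5 of the 7 genes (*CAV1*, *CAV2*, *CAVIN2*, *EHD2* and *PACSIN2*). The GC box was found 3 times before *CAV1*, 6 times before *CAV2*, once before *EHD2*, 2 times before *PACSIN2* and not before *CAVIN2*, against 42.2% of 27305 promoters with at least 1. The *CAV2* window was 83.2% G or C with 35 CpG, the *CAV1* window 63.6% with 18, and the *CAVIN2* window 48.0% with 4, against medians of 57.6% and 10 over all promoters. The GGAATG match of *CAVIN2* began 16 bases before the start, and 12.0% of promoters hold these letters on either strand. TATAAA, the AP-1 site TGANTCA and the E-box CAGGTG (bound by ZEB and SNAI proteins) matched none of the 5 windows on either strand, while 11.2%, 6.57% and 17.5% of all promoters hold them. CCAAT, the NF-Y box, matched 3 times before *PACSIN2* (33.0% of promoters hold it). No motif overlapped another. These are matches of letters and not measured binding sites.

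The other genes lie on chromosomes of their own. *CAVIN1* (ENSG00000177469.13) spans chr17:42402449-42423256 on the minus strand, *CAVIN3* (ENSG00000170955.10) chr11:6318946-6320532 on the minus strand, *EHD2* (ENSG00000024422.12) chr19:47713422-47743134 on the plus strand and *PACSIN2* (ENSG00000100266.19) chr22:42835412-43015149 on the minus strand. *ARFGAP3* overlaps *PACSIN2* on the same strand, and how transcripts of overlapping genes shared reads was not tested.

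In all 18 libraries *CAV1* was the most abundant of the 7 genes (the plot of levels by library shows each value). Among all gene symbols it ranked from 238th in the mean of Panc1 Holoclone cells to 708th in that of parental Panc89 cells. Together the 7 genes made up 0.0376 to 0.158% of the TPM of a library. The muscle forms were low: *CAV3*, the muscle caveolin, was at most 0.0854 TPM and *CAVIN4*, the muscle cavin, at most 0.683 TPM, and neither passed the filter.

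**Figure D1:**
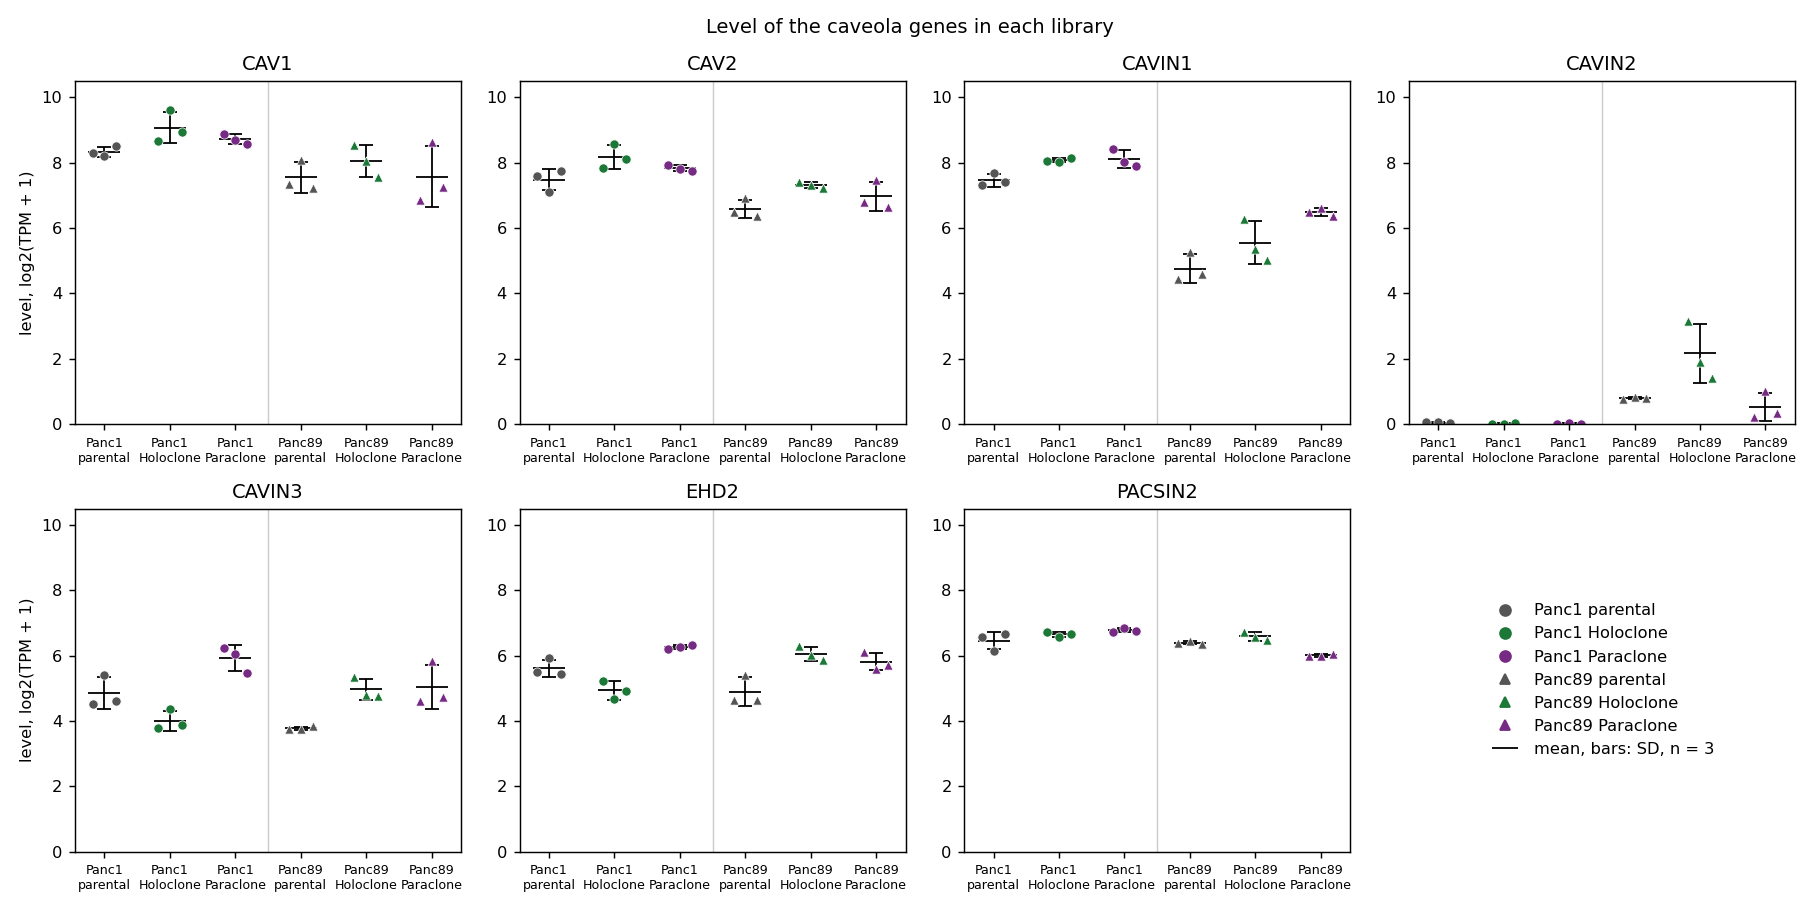
Level of each caveola gene as log2(TPM + 1) in the 18 libraries, with group means and SD (n = 3) as bars, Panc1 groups left and Panc89 groups right of the grey line. *CAVIN1* is lower in all 9 Panc89 libraries than in all 9 Panc1 libraries, *CAVIN2* is near 0 in Panc1 cells, and *PACSIN2* has the narrowest spread.

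*CAV1* encodes the coat protein of caveolae outside striated muscle. In parental Panc1 cells *CAV1* was at 312, 292 and 361 TPM (replicates 1, 2 and 3), in Panc1 Holoclone cells at 409, 779 and 486 TPM, and in Panc1 Paraclone cells at 474, 409 and 382 TPM. In parental Panc89 cells it was at 161, 272 and 148 TPM, in Panc89 Holoclone cells at 374, 267 and 186 TPM, and in Panc89 Paraclone cells at 115, 395 and 151 TPM. The highest library was Panc1 Holoclone replicate 2, and the Panc89 Paraclone cells had 1 library, replicate 2, inside the Panc1 range and 2 at or near the bottom of all libraries. In the order of group means from parental Panc89 to Panc1 Holoclone cells, every pair of neighbours overlapped except parental Panc1 and Panc1 Paraclone cells.

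*CAV1* was lower in Panc89 than in Panc1 cells among Holoclone cells (log2 fold change -1.02, SE 0.38, adjusted p = 0.0287) and among Paraclone cells (-1.14, SE 0.38, adjusted p = 0.0173), where the groups overlapped. Between the parental cells it was -0.78 (SE 0.38, adjusted p = 0.0860), with every Panc89 library below every Panc1 library, and the call was not made. The Holoclone call was lost on leaving out Panc1 Holoclone replicate 2, Panc89 Holoclone replicate 2 or Panc89 Holoclone replicate 3 (adjusted p 0.0592 to 0.131) and under median-of-ratios scaling (-0.83, adjusted p = 0.0571), and the Paraclone call on leaving out Panc1 Paraclone replicate 1 or Panc89 Paraclone replicate 1 or 3 (0.0538 to 0.101). Without Panc89 parental replicate 2 the parental difference was -1.05 and was called (adjusted p = 0.0396).

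*CAV2* needs CAV1 to reach the surface and assembles with it into hetero-oligomers. It was at 193, 137 and 214 TPM in parental Panc1, 228, 380 and 275 TPM in Panc1 Holoclone and 243, 223 and 215 TPM in Panc1 Paraclone cells. In Panc89 cells it was at 89.3, 119 and 81.6 TPM in parental, 170, 159 and 148 TPM in Holoclone and 110, 177 and 98.3 TPM in Paraclone cells. *CAV2* followed the same order of groups as *CAV1*, and within each pair of matched variants no Panc89 library reached a Panc1 library. It was lower in Panc89 cells in all 3 variants, by -0.89 in parental (SE 0.23, adjusted p = 0.00271), -0.85 in Holoclone (SE 0.23, adjusted p = 0.00383) and -0.86 in Paraclone cells (SE 0.23, adjusted p = 0.00390).

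Within a line neither caveolin was called between Holoclone and Paraclone cells. In Panc1 cells the difference of Holoclone minus Paraclone cells was 0.35 for *CAV1* (SE 0.38, adjusted p = 0.518) and 0.34 for *CAV2* (SE 0.23, adjusted p = 0.263). In Panc89 cells it was 0.48 for *CAV1* (SE 0.38, adjusted p = 0.366) and 0.36 for *CAV2* (SE 0.23, adjusted p = 0.250). The Panc89 values rest on Panc89 Paraclone replicate 2, the library that correlated least with its replicates: without it *CAV1* was 1.00 higher (adjusted p = 0.0184) and *CAV2* 0.61 higher (adjusted p = 0.0331) in Panc89 Holoclone cells, and both were called. Against parental cells, *CAV2* rose in Panc89 Holoclone cells (0.73, SE 0.23, adjusted p = 0.0282), while *CAV1* was at 0.50 (SE 0.38, adjusted p = 0.389). The *CAV2* call was lost without any 1 of Panc89 parental replicates 1 and 3 and Panc89 Holoclone replicates 1 and 2 (adjusted p 0.0683 to 0.112), and under upper quartile and median-of-ratios scaling of the TPM (0.63 in both, adjusted p = 0.0579 in both).

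The 2 caveolins were compared within each library. The TPM of *CAV1* per TPM of *CAV2* was 1.80 ± 0.32 (SD over 18 libraries), from 1.05 in Panc89 Paraclone replicate 1 to 2.29 in Panc89 parental replicate 2. The group means of this ratio were 1.60 to 1.97. The replicates themselves moved in parallel: over the 18 libraries the deviations of *CAV1* and *CAV2* from their group means had a Pearson correlation of 0.86. For *CAV1* it was 0.69 with *CAVIN3*, 0.66 with *CAVIN2*, 0.55 with *CAVIN1*, 0.17 with *PACSIN2* and -0.07 with *EHD2*. In the Panc1 libraries the deviations of *CAVIN2* were at most 0.025 in size, so the value with *CAVIN2* rests on the Panc89 libraries. Panc89 Paraclone replicate 2 had the largest deviations of both *CAV1* (1.05) and *CAVIN3* (0.78). These points share their library and group, and the correlations are given as a description. Measured as the root mean square (RMS) difference of log2(TPM + 1) profiles, each centred on its mean over the 18 libraries, *CAV2* was 0.28 from *CAV1*, and the closest of 16086 other tested genes were *RFX2* (0.29), *HAUS1* (0.31) and *PIGN* (0.33). For *CAV2* the closest of those genes were *SPAG9* (0.22), *KTN1-AS1* (0.24) and *ANKRD28* (0.25), each nearer to it than *CAV1* was.

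The neighbouring genes of chromosome 7 lay farther from *CAV1*. The 3 nearest tested genes before the pair were *TES*, which ends 28597 bp before the GENCODE start of *CAV2*, *LINC01393* and *MDFIC*, with RMS differences of 0.69, 1.04 and 1.33. The RefSeq start used for the *CAV2* window lies farther from *TES*. The 3 nearest after it were *MET*, which lies 111017 bp away and encodes the receptor of hepatocyte growth factor, *CAPZA2* and *ST7-AS1*, with 0.69, 0.53 and 0.96. In *MET* the highest group mean was that of Panc89 Holoclone cells (6.70 on the log2 scale, against 6.15 to 6.20 in the Panc1 groups), whereas that of *CAV1* was in Panc1 Holoclone cells (9.07).

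*CAVIN1*, the cavin that caveola formation depends on, had the largest differences between the lines on the log2(TPM + 1) scale, on which changes of low genes such as *CAVIN2* are understated. It was at 159, 206 and 167 TPM in parental Panc1, 266, 261 and 284 TPM in Panc1 Holoclone and 341, 259 and 236 TPM in Panc1 Paraclone cells. In Panc89 cells it was at 20.5, 37.7 and 22.9 TPM in parental, 77.1, 39.8 and 31.4 TPM in Holoclone and 88.7, 96.7 and 81.2 TPM in Paraclone cells. All 9 Panc89 libraries were below all 9 Panc1 libraries. The difference was -2.71 between parental cells (SE 0.27, adjusted p = 2.58e-07), -2.53 between Holoclone cells (SE 0.27, adjusted p = 5.60e-07) and -1.62 between Paraclone cells (SE 0.27, adjusted p = 7.32e-05).

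Among Panc89 cells *CAVIN1* rose from parental over Holoclone to Paraclone cells. It was higher than in parental cells by 1.73 in Paraclone cells (SE 0.27, adjusted p = 0.000278) and by 0.79 in Holoclone cells (SE 0.27, adjusted p = 0.0414), and both comparisons use the same parental libraries. The Holoclone libraries overlapped the parental ones, and that call was lost without any 1 of Panc89 parental replicates 1 and 3 and Panc89 Holoclone replicates 1 and 2 (adjusted p 0.0553 to 0.177), and under both other scalings (0.69 in both, adjusted p = 0.0559 and 0.0530). Holoclone minus Paraclone cells was -0.93 (SE 0.27, adjusted p = 0.0127), a call lost without Panc89 Holoclone replicate 2 or 3 (adjusted p 0.0531 and 0.0722). In Panc1 cells Holoclone and Paraclone cells were at nearly the same level, with a difference of -0.03 (SE 0.27, adjusted p = 0.975), and against parental cells the Holoclone value was 0.61 (SE 0.27, adjusted p = 0.175) and the Paraclone value 0.64 (SE 0.27, adjusted p = 0.0877).

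The balance of *CAVIN1* to *CAV1* is given as a ratio within each library. *CAVIN1* TPM per *CAV1* TPM was 0.334 to 0.719 in the 9 Panc1 libraries, 0.127 to 0.155 in parental Panc89, 0.149 to 0.206 in Panc89 Holoclone and 0.245 to 0.774 in Panc89 Paraclone cells. The parental and Holoclone libraries of Panc89 were thus below all Panc1 libraries, while the Panc89 Paraclone libraries lay below (replicate 2), inside (replicate 3) and above (replicate 1) the Panc1 range. In Panc89 Paraclone replicate 2 both genes were at their highest of the 9 Panc89 libraries, and *CAV1* stood farther above the other Paraclone libraries than *CAVIN1* did.

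**Figure D2:**
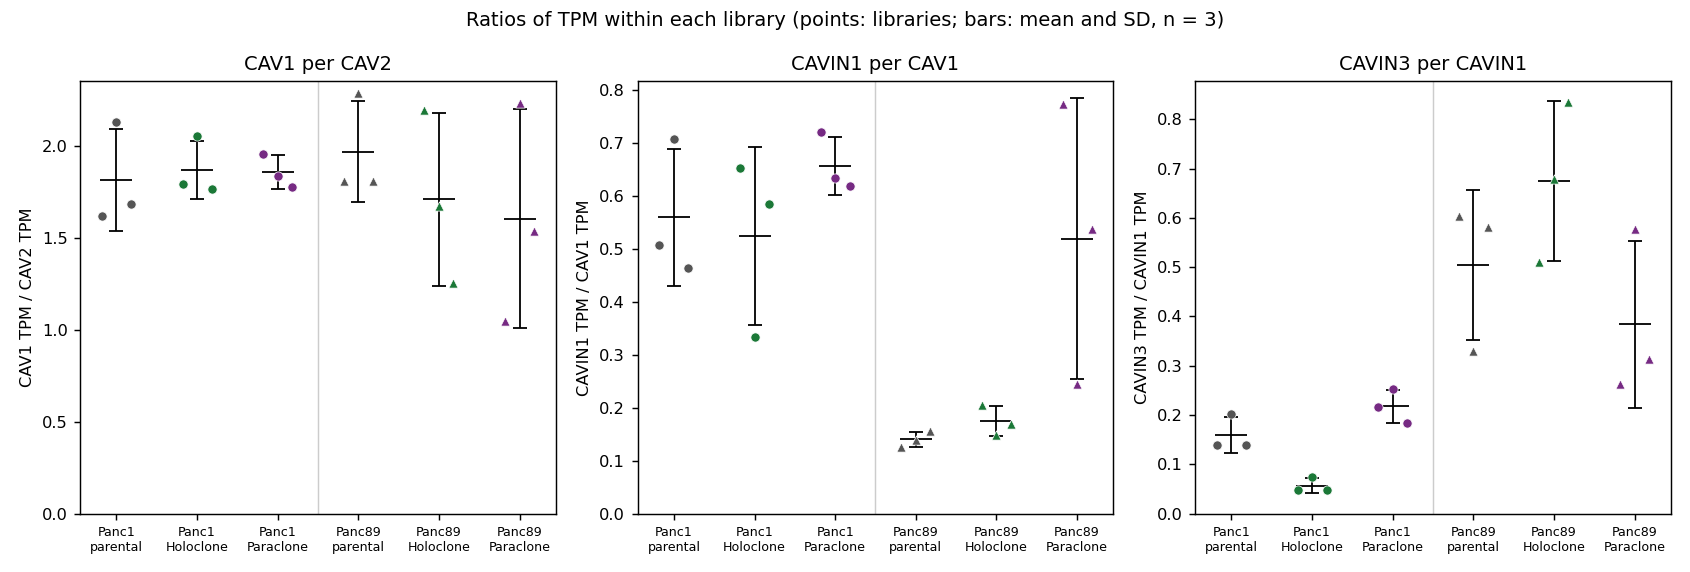
Ratios of TPM within each of the 18 libraries for *CAV1* per *CAV2*, *CAVIN1* per *CAV1* and *CAVIN3* per *CAVIN1*, with points for libraries and bars for the mean and SD (n = 3). The first ratio stays between 1.05 and 2.29, the second is at most 0.206 in parental and Holoclone Panc89 cells, and the third is lowest in Panc1 Holoclone cells.

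The profiles most like that of *CAVIN1* over the 18 libraries were those of *ITGBL1* (RMS difference 0.41), *SMAD3*, a transducer of TGF-beta signals (0.41), and *CD59*, an inhibitor of complement (0.42). All 3 were lower in every Panc89 group mean than in every Panc1 group mean.

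*CAVIN3*, which binds protein kinase C delta, was at 22.1, 41.5 and 23.3 TPM in parental Panc1, 12.8, 19.5 and 13.8 TPM in Panc1 Holoclone and 74.1, 65.3 and 43.5 TPM in Panc1 Paraclone cells. The Panc89 values of *CAVIN3* were 12.4, 12.4 and 13.3 TPM in parental, 39.3, 27.1 and 26.2 TPM in Holoclone and 23.3, 55.9 and 25.4 TPM in Paraclone cells. Every Panc1 Paraclone library was above every Panc1 Holoclone library, while the Panc89 clones overlapped and both stood above parental Panc89 cells. Holoclone minus Paraclone cells was -1.91 in Panc1 cells (SE 0.31, adjusted p = 0.000192), a TPM ratio of 0.252, and -0.08 in Panc89 cells (SE 0.31, adjusted p = 0.881).

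Between the lines the sign of the *CAVIN3* difference depended on the variant. Panc89 cells were lower among parental (-1.07, SE 0.31, adjusted p = 0.00675) and Paraclone cells (-0.87, SE 0.31, adjusted p = 0.0247) and higher among Holoclone cells (0.96, SE 0.31, adjusted p = 0.0131). The Paraclone call was lost on leaving out Panc1 Paraclone replicate 1 or 2 or Panc89 Paraclone replicate 1 or 3 (adjusted p 0.0717 to 0.116), and the Holoclone call on leaving out Panc1 Holoclone replicate 1 or Panc89 Holoclone replicate 1 (0.0503 and 0.0591). Against parental cells *CAVIN3* rose in both Panc89 clones, by 1.19 in Holoclone (SE 0.31, adjusted p = 0.0106) and 1.28 in Paraclone cells (SE 0.31, adjusted p = 0.00870). In Panc1 cells it rose by 1.07 in Paraclone cells (SE 0.31, adjusted p = 0.0177), a call lost without Panc1 parental replicate 1 or 3 or Panc1 Paraclone replicate 1 or 2 (0.0640 to 0.0793), and was at -0.84 in Holoclone cells (SE 0.31, adjusted p = 0.108).

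*CAVIN3* TPM per *CAVIN1* TPM was 0.0481 to 0.0749 in Panc1 Holoclone cells, 0.139 to 0.202 in parental Panc1 and 0.185 to 0.252 in Panc1 Paraclone cells. In Panc89 cells it was 0.262 to 0.835 over the 9 libraries. *CAVIN1* accordingly made up 93.0 to 95.4% of cavin TPM in Panc1 Holoclone cells and 53.0 to 62.0% in Panc89 Holoclone cells.

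*CAVIN2*, a cavin that binds phosphatidylserine and shapes the caveola membrane, was at most 0.0430 TPM in the 9 Panc1 libraries. Among Panc89 cells *CAVIN2* was at 0.700, 0.775 and 0.731 TPM in parental, 7.99, 2.75 and 1.65 TPM in Holoclone and 0.150, 0.999 and 0.268 TPM in Paraclone cells. The 3 Panc89 Holoclone libraries were the highest of all 18 and the only ones at 1 TPM or more, so that *CAVIN2* entered the test through them alone and had to differ there. Its fold changes are given as descriptions: 1.65 for Holoclone minus Paraclone cells (SE 0.31), 1.36 for Holoclone minus parental Panc89 cells (SE 0.31) and 2.15 for Panc89 minus Panc1 Holoclone cells (SE 0.31). Between the parental cells it was 0.75 (SE 0.31, adjusted p = 0.0440), and this call was lost whichever of the 6 parental libraries was left out (adjusted p 0.0788 to 0.0903). Between the Paraclone cells it was 0.50 (SE 0.31, adjusted p = 0.182). With 0.1 in place of 1 added before the logarithm the line differences were 2.69 in parental, 4.97 in Holoclone and 2.05 in Paraclone cells, and the last was then called (adjusted p = 0.00327). The overlapping antisense gene *CAVIN2-AS1* was at most 0.0765 TPM.

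*EHD2*, the ATPase of the caveola neck, was at 44.1, 59.6 and 42.0 TPM in parental Panc1, 36.6, 24.6 and 29.1 TPM in Panc1 Holoclone and 73.2, 76.8 and 79.5 TPM in Panc1 Paraclone cells. Among Panc89 cells *EHD2* was at 24.0, 41.4 and 24.0 TPM in parental, 77.4, 63.9 and 57.3 TPM in Holoclone and 68.2, 47.7 and 52.1 TPM in Paraclone cells. The Panc1 groups did not overlap, with Holoclone cells lowest and Paraclone cells highest, and both Panc89 clones stood above parental Panc89 cells. Holoclone minus Paraclone cells was -1.34 in Panc1 cells (SE 0.21, adjusted p = 0.000152) and 0.24 in Panc89 cells (SE 0.21, adjusted p = 0.411).

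*EHD2* was lower in parental Panc89 than in parental Panc1 cells (-0.72, SE 0.21, adjusted p = 0.00755), a call lost under median-of-ratios scaling (-0.48, adjusted p = 0.0664), and higher in Panc89 than in Panc1 Holoclone cells (1.12, SE 0.21, adjusted p = 0.000239). Between the Paraclone cells the value was -0.46 (SE 0.21, adjusted p = 0.0737), and without Panc89 Paraclone replicate 1 it was -0.61 and called (adjusted p = 0.0348). Against parental cells *EHD2* rose in Panc89 Holoclone cells by 1.16 (SE 0.21, adjusted p = 0.000821) and in Panc89 Paraclone cells by 0.92 (SE 0.21, adjusted p = 0.00597). In Panc1 Paraclone cells it rose by 0.66 (SE 0.21, adjusted p = 0.0295), a call lost without Panc1 parental replicate 1 or 3 or Panc1 Paraclone replicate 2 or 3 (0.0766 to 0.105). In Panc1 Holoclone cells it was at -0.68 against parental cells (SE 0.21, adjusted p = 0.0540).

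*PACSIN2* had the most even level. It was at 94.1, 70.4 and 100.1 TPM in parental Panc1, 106, 93.6 and 99.8 TPM in Panc1 Holoclone and 105, 114 and 107 TPM in Panc1 Paraclone cells. For Panc89 cells *PACSIN2* was at 83.3, 87.2 and 80.4 TPM in parental, 106, 93.3 and 88.3 TPM in Holoclone and 62.6, 62.7 and 65.8 TPM in Paraclone cells. The Panc89 Paraclone libraries were the 3 lowest of all 18. *PACSIN2* was lower in Panc89 Paraclone than in Panc1 Paraclone cells (-0.76, SE 0.12, adjusted p = 3.41e-05), higher in Panc89 Holoclone than in Panc89 Paraclone cells (0.58, SE 0.12, adjusted p = 0.00112) and lower in Panc89 Paraclone than in parental Panc89 cells (-0.39, SE 0.12, adjusted p = 0.0281). The last call was lost whichever library was left out except Panc89 Paraclone replicate 2 (adjusted p 0.0560 to 0.0831), and under median-of-ratios scaling (-0.35, adjusted p = 0.0589). Between parental cells and between Holoclone cells the line difference was -0.06 in both (SE 0.12, adjusted p = 0.659 and 0.672), and its sign turned under both other scalings of the TPM. Between Panc1 Holoclone and Panc1 Paraclone cells it was -0.12 (SE 0.12, adjusted p = 0.446), and under those scalings it was -0.37 and -0.40 and was called (adjusted p = 0.0384 and 0.0246).

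Calls were counted over the 6 genes other than *CAVIN2*, since its place among the tested genes was set by the Panc89 Holoclone libraries. Between the lines 4 of the 6 were called among parental cells, all lower in Panc89 cells, where 66.0% of all tested genes were called (27.5% higher, 38.5% lower). Among Holoclone cells it was 5 genes (2 higher, 3 lower), against 65.8% of all genes (29.3% higher, 36.4% lower), and among Paraclone cells 5 genes, all lower, against 60.7% of all genes (30.2% higher, 30.4% lower). *CAV2* and *CAVIN1* were called lower in all 3 variants. The groups did not overlap in 5 of the 6 genes among parental cells and in 5 among Holoclone cells, as in 73.3% and 69.0% of all genes, and in 4 among Paraclone cells, as in 64.0%. The median over the 6 genes was -0.84 among parental, -0.46 among Holoclone and -0.87 among Paraclone cells, beside -0.18, -0.11 and -0.00 over all tested genes.

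**Figure D3:**
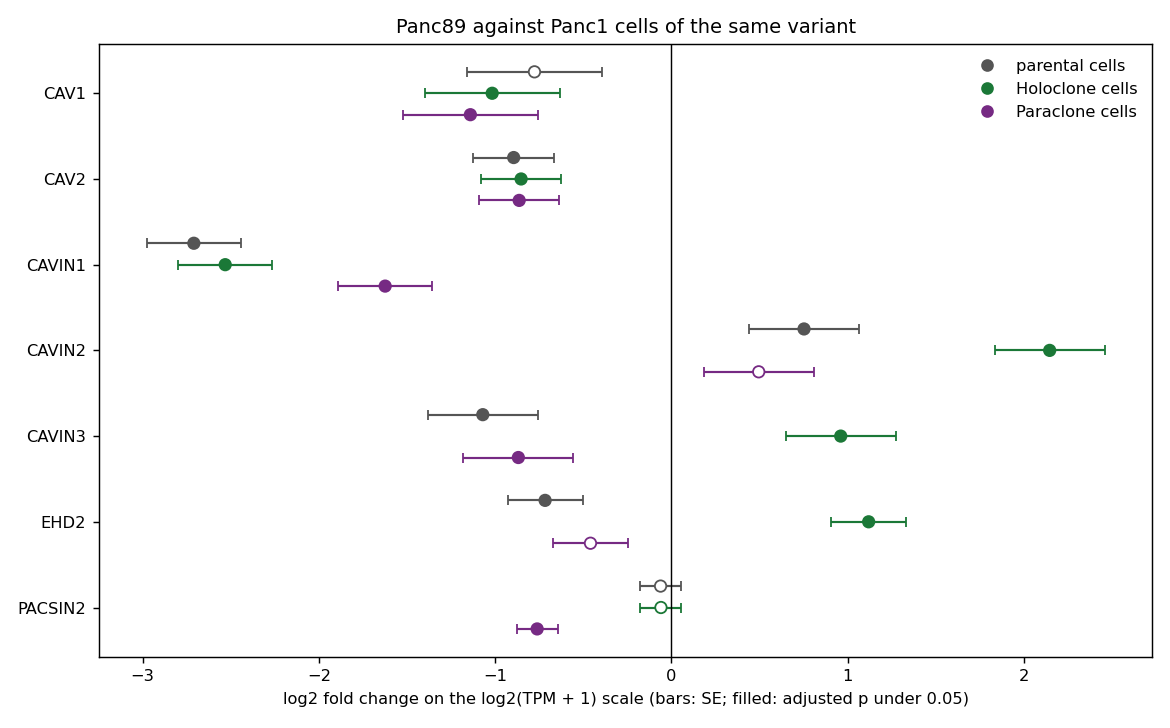
Difference between Panc89 and Panc1 cells of the same variant for each caveola gene, as log2 fold change with SE bars, filled where the adjusted p was under 0.05. *CAV1*, *CAV2* and *CAVIN1* lie left of 0 in all 3 variants, and *CAVIN3* and *EHD2* lie right of 0 in Holoclone cells only. The filled *CAVIN2* point of Holoclone cells is a description only, since the filter let this gene in through the Panc89 Holoclone libraries.

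Between Holoclone and Paraclone cells, 2 of the 6 genes were called in Panc1 cells (*CAVIN3* and *EHD2*, both lower in Holoclone cells), where 37.3% of all tested genes were called (27.4% higher, 9.97% lower). The libraries of these 2 genes did not overlap, as in 51.3% of all genes. In Panc89 cells 2 were called (*PACSIN2* higher, *CAVIN1* lower in Holoclone cells), where 35.7% of all genes were called (22.4% higher, 13.3% lower), and the libraries of 2 genes did not overlap, as in 40.8% of all genes. Leaving out Panc89 Paraclone replicate 2 added *CAV1* and *CAV2*.

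Whether the Holoclone against Paraclone change differed between the lines was tested as an interaction, the Panc89 change minus the Panc1 change. It was called in 3 of the 6 genes, where 35.1% of all tested genes were called (14.8% with a positive and 20.4% with a negative value). The difference of changes was 1.83 for *CAVIN3* (SE 0.44, adjusted p = 0.00444), 1.58 for *EHD2* (SE 0.30, adjusted p = 0.000769) and 0.70 for *PACSIN2* (SE 0.16, adjusted p = 0.00363). For *CAVIN2* the value was 1.65 (SE 0.44), a description only, since the filter let it in through the Panc89 Holoclone libraries. For *CAVIN1* it was -0.91 (SE 0.38, adjusted p = 0.0758), and without Panc89 Holoclone replicate 1 it was -1.27 and called (adjusted p = 0.00345). For *CAV1* it was 0.12 (SE 0.54, adjusted p = 0.884) and for *CAV2* 0.01 (SE 0.32, adjusted p = 0.985), and neither passed the test. The 3 calls held on leaving out each of the 12 clone libraries in turn and under both other scalings.

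**Figure D4:**
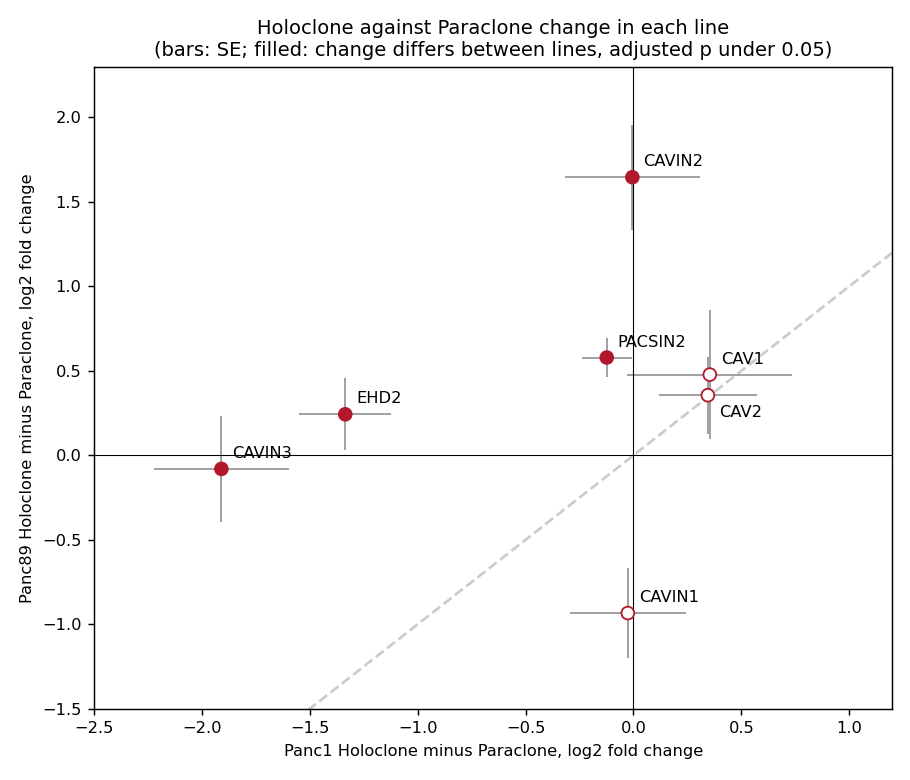
Holoclone minus Paraclone log2 fold change in Panc1 cells (horizontal) and Panc89 cells (vertical) for each caveola gene, with SE bars and a dashed line of equal change; filled points are genes whose change differs between the lines at an adjusted p under 0.05. *CAV1* and *CAV2* lie near the dashed line, *CAVIN3* and *EHD2* far to the left of it, and *CAVIN2* is a description only.

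Against parental cells, none of the 6 genes was called by limma in Panc1 Holoclone cells, where 10.9% of all tested genes were called (5.87% higher, 5.06% lower). At an unadjusted p under 0.05 there were 4 (*CAV2* and *CAVIN1* higher, *CAVIN3* and *EHD2* lower), against 23.5% of all genes at that threshold, and the libraries of 5 genes did not overlap, as in 30.3% of all genes. Without Panc1 Holoclone replicate 1 *CAV2* (0.86, adjusted p = 0.0446) and *EHD2* (-0.82, adjusted p = 0.0402) were called. In Panc1 Paraclone cells 2 were called, both higher (28.6% of all genes, 7.31% higher and 21.3% lower), with no overlap in 6 genes, as in 42.9% of all genes. Leaving out 1 library gave 0 to 2 calls, with 0 without Panc1 parental replicate 1 or Panc1 Paraclone replicate 2 and 1 without Panc1 parental replicate 3 or Panc1 Paraclone replicate 1 or 3, while both other scalings of the TPM gave 4, with *CAVIN1* and *PACSIN2* added. Over all tested genes the 2 scalings called 3801 and 3778 (4599 in the full fit), and calls on leaving out a library were not counted. Without Panc1 parental replicate 3 the 1 call was *PACSIN2* (0.41, adjusted p = 0.0253), and *CAVIN3* and *EHD2* were lost. In the full fit *PACSIN2* was at 0.31 (SE 0.12, adjusted p = 0.0557). In Panc89 Holoclone cells 4 were called, all higher (24.7% of all genes, 16.1% higher and 8.61% lower); without Panc89 parental replicate 1 or 3 or Panc89 Holoclone replicate 1 or 2 *CAV2* and *CAVIN1* were no longer called. In Panc89 Paraclone cells 4 were called, of which *PACSIN2* was lower (19.4% of all genes, 9.37% higher and 10.0% lower). The libraries did not overlap in 4 genes in each of the 2 Panc89 comparisons, as in 41.2% and 35.8% of all genes. All these comparisons with parental cells share the parental libraries of their line. *CAVIN3* and *EHD2* were called higher in both Panc89 clones and in Panc1 Paraclone cells. With the compared groups fitted alone, both calls were lost in Panc89 Paraclone cells (adjusted p = 0.0641 for *CAVIN3* and 0.0720 for *EHD2*). In Panc1 Paraclone cells that of *CAVIN3* was lost too (adjusted p = 0.0639).

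The other lists of the pathway were given by counts. Of the 10 proteins that act on caveolae or bind their coat, 7 were called between parental cells (2 higher and 5 lower in Panc89 cells), close to the 66.0% of all tested genes, with the largest values in *PRKCA*, a protein kinase C (-2.75, adjusted p = 5.56e-10), *ROR1*, a receptor that scaffolds CAV1 and CAVIN1 (-2.40, adjusted p = 1.27e-08), and *FYN*, a kinase of the SRC family (-1.95, adjusted p = 0.000234). Between Holoclone and Paraclone cells 4 were higher and 2 lower in Panc1 cells, where 37.3% of all genes were called, and 4 higher and 3 lower in Panc89 cells, where 35.7% were. *FYN* was higher in Holoclone cells of both lines, by 2.34 in Panc1 (adjusted p = 0.000142) and 4.20 in Panc89 cells (adjusted p = 4.28e-07). *FLNA*, the actin crosslinker that ties caveolae to stress fibres, was lower in Panc1 Holoclone than in Panc1 Paraclone cells (-0.80, adjusted p = 0.000130).

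Of 12 receptors and enzymes found in caveolae 7 were tested. Between parental cells 3 were lower in Panc89 cells, *EGFR* (-1.88, adjusted p = 3.12e-06), *IGF1R* (-1.33, adjusted p = 5.03e-06) and *NOS3*, the nitric oxide synthase that CAV1 inhibits (-1.13, adjusted p = 0.00438), and 2 were higher. Of all tested genes 66.0% were called there (27.5% higher, 38.5% lower). *MMP14*, a membrane-bound matrix protease, was lower in Holoclone than in Paraclone cells of Panc1 (-1.93, adjusted p = 5.56e-05) and higher in those of Panc89 (2.16, adjusted p = 1.87e-05). Counts of this list between Holoclone and Paraclone cells were 3 higher and 3 lower in Panc1 cells, and 1 higher and 1 lower in Panc89 cells. The shares of all tested genes called were 37.3% (27.4% higher, 9.97% lower) and 35.7% (22.4% higher, 13.3% lower).

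The family relatives of the caveola genes, the flotillins and the clathrin coat served for comparison. Of 7 relatives 5 were tested, and all 5 were called between parental cells, 2 higher and 3 lower in Panc89 cells, with *EHD3* at -2.03 (adjusted p = 9.85e-09) and *EHD1* at -1.84 (adjusted p = 3.18e-06). In that comparison 66.0% of all tested genes were called. Between Holoclone and Paraclone cells 3 of these 5 relatives were higher and 1 lower in Panc1 cells, where 37.3% of all genes were called. In Panc89 cells 0 were higher and 1 was lower, where 35.7% of all genes were called. The lower gene was *EHD1*, which recycles endosomes, in both lines, by -0.96 in Panc1 (adjusted p = 0.00348) and -0.78 in Panc89 cells (adjusted p = 0.0136). Of the flotillins, which form membrane domains without caveolins, *FLOT2* was called between parental cells (0.42, adjusted p = 0.0228). Of 12 genes of the clathrin coat, the other main route of endocytosis, 2 were higher and 6 lower in parental Panc89 cells (66.0% of all genes called, 27.5% higher and 38.5% lower), with a list median of -0.56 beside -0.18 over all genes. Between Holoclone and Paraclone cells 5 were higher and 2 lower in Panc1 cells, and 2 higher and 3 lower in Panc89 cells, where 37.3% and 35.7% of all genes were called.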

How the data were processed

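RNA of each cell variant was sequenced by the authors as stranded, paired-end mRNA libraries, quantified with kallisto 0.46.1 against the Ensembl GRCh38 transcriptome and summarised per gene from scaled TPM with tximport. The strand setting of the quantification is not given in the sources used here. The deposited values are log2(TPM + 1), 1 per gene symbol and library, so the counts and the depth behind them are unknown, and no counting interval or floor was given. Of 40266 symbols, 10923 were at 0 in all libraries. The values sum to 985339 to 988066 TPM per library once the log2 is undone.

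All 18 libraries were mapped to line, variant and replicate from their labels and entered 1 fit with a mean per group in limma 3.58.1 (R 4.3.3, eBayes with trend) on the 16093 genes that reached 1 TPM in 3 or more libraries. Contrasts were two-sided, with Benjamini-Hochberg adjustment over all genes tested and a threshold of 0.05. The count test of the study needs reads, which were not used here. The fit was tested on simulated data. Ratios and profiles were computed in Python 3.11.15 with pandas 2.3.3, and positions were read from GENCODE 44.

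The genes, the lists of related genes and the markers were chosen with earlier results of these data known. Named were the 7 genes, up to 3 called genes with the largest change per list and comparison, the 3 profiles nearest to *CAV1*, to *CAV2* and to *CAVIN1*, and the 3 nearest tested genes on each side of the *CAV2* and *CAV1* pair. Alternatives were another pseudocount (0.1), no filter or 5 TPM, the compared groups alone, replicate blocks, upper quartile and median-of-ratios scaling, limma without the trend, a minimum log2 fold change of 1 and leaving out each library. Equal replicate numbers did not pair the libraries.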

Additional observations from a re-analysis of the deposited data

Results flagged for a closer look

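In *CAVIN3*, *EHD2* and *PACSIN2* the change between Holoclone and Paraclone cells differed between the lines by the test of the difference itself. The Panc89 change minus the Panc1 change was 1.83 on the log2 scale for *CAVIN3* (adjusted p = 0.00444), 1.58 for *EHD2* (adjusted p = 0.000769) and 0.70 for *PACSIN2* (adjusted p = 0.00363). For *CAVIN3* and *EHD2* the change called was that of Panc1 cells (-1.91 and -1.34). For *PACSIN2* it was that of Panc89 cells (0.58), and under the 2 other scalings the Panc1 change (-0.37 and -0.40) was called too. For *CAVIN2* the value was 1.65, which is no test, since it passed the filter only through the Panc89 Holoclone libraries. Over all tested genes the median of this difference was -0.11, and 35.1% of genes were called. Each clone was 1 line of cells, and the part of the single clone in these differences cannot be told apart from that of the Holoclone or Paraclone state.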

How the results depend on the processing

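Of the caveola gene fold changes under alternatives, 1023 kept direction and side of the threshold, 85 lost and 20 gained the call, and 24 turned sign; 132 counts stayed within 1.5 times and 34 did not. The cause was not tested. The totals above are over all 7 genes, *CAVIN2* included. In the rest of this paragraph the calls are those of the other 6, since the filter let *CAVIN2* in through the Panc89 Holoclone libraries. With the compared groups alone, *PACSIN2* was called between Panc89 Holoclone and Paraclone cells (2 genes in the full fit). Over all tested genes the calls there fell from 5746 to 3377. Against parental cells it was *CAVIN1* in Panc1 Holoclone (0 in the full fit) and *EHD2* in Panc1 Paraclone cells (2). In Panc89 cells it was *CAV2*, *CAVIN3* and *EHD2* in Holoclone (4) and *CAVIN1* and *PACSIN2* in Paraclone cells (4). Over all genes these 4 comparisons went from 1759 to 1322, 4599 to 3711, 3981 to 3296 and 3120 to 2240 calls. No filter left *CAVIN3* in Panc1 Paraclone and *CAVIN3* and *EHD2* in Panc89 Holoclone cells against parental. With more genes tested, the calls over all genes went from 4599 to 4592 and from 3981 to 4348. Upper quartile and median-of-ratios scaling each gave *EHD2* in Panc1 Holoclone and *CAVIN3* and *EHD2* in Panc89 Holoclone cells against parental. In Panc1 Paraclone cells each gave *CAVIN1*, *CAVIN3*, *EHD2* and *PACSIN2*. Over all genes the 2 scalings called 1769 and 1763, 3773 and 3851, and 3801 and 3778 in these 3 comparisons. They turned *PACSIN2* between the lines to 0.10 and 0.18 in parental and 0.055 and 0.13 in Holoclone cells. A log2 fold change over 1 left *CAVIN1* and *CAVIN3* between parental lines (4 genes in the full fit) and *CAV1* and *CAVIN1* between Paraclone lines (5). It left none of the 6 between Panc89 Holoclone and Paraclone cells. Against parental cells it left *CAVIN3* and *EHD2* in Panc89 Holoclone, *CAVIN1* and *CAVIN3* in Panc89 Paraclone and *CAVIN3* in Panc1 Paraclone cells. The calls over all genes past this limit were not counted. These scalings moved the median of all genes from 0.19 to 0.01 and 0 between Panc1 Holoclone and Paraclone cells and from -0.18 to -0.04 and 0.02 between parental lines. The share of called genes that were higher went from 73.3% to 51.3% and 47.7% in the former, from 41.6% to 48.3% and 51.8% in the latter, from 62.8% to 52.5% and 49.3% between Panc89 Holoclone and Paraclone cells, from 25.6% to 47.4% and 53.0% in Panc1 Paraclone and from 65.2% to 51.3% and 51.0% in Panc89 Holoclone cells against parental.

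Leaving out 1 library gave 3 to 5 genes between Paraclone lines and 0 to 2 for either Panc1 clone against parental, with *CAVIN2* in none of these counts. It gave 2 to 5 between Panc89 Holoclone and Paraclone cells and 3 to 5 in Panc89 Holoclone cells against parental. *CAVIN2*, which the filter had set to differ there, was in each of those counts. The calls over all genes in these fits were not counted. Sign turned for small differences: *PACSIN2* between parental lines (-0.21 to 0.037), *CAVIN1* (-0.14 to 0.13) and *CAVIN2* (-0.011 to 0.0016) between Panc1 Holoclone and Paraclone cells, *CAVIN3* between those of Panc89 (-0.31 to 0.31), *CAV1* in Panc89 Paraclone against parental (-0.50 to 0.39), and the difference of changes of *CAV1* (-0.24 to 0.65) and *CAV2* (-0.16 to 0.27). The replicate block in each line gave 3 genes between parental lines (without *EHD2*, adjusted p = 0.0784, and *CAVIN2*) and 1 in Panc1 Paraclone against parental. Over all genes the calls there fell from 10623 to 8939 and from 4599 to 3978. It also lost *CAV1* between Holoclone lines (adjusted p = 0.0553) and *CAVIN3* between Paraclone lines (0.0888). Against parental cells it lost *CAVIN1* in Panc89 Holoclone (0.0628) and *PACSIN2* in Panc89 Paraclone cells (0.0530). The block over both lines gave the same 10 counts as no block. Libraries of a line with equal numbers had correlated deviations of -0.318 to 0.190 over 18 pairs, and 3 of 18 libraries correlated best with their own number, so the numbers were not taken as pairs. Depth is unknown, so the precision of low values such as *CAVIN2* could not be given.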
